A study of Mus musculus with 48 samples.

Results

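The genes described here are 10 mouse genes of major histocompatibility complex (MHC) antigen presentation, matched by symbol among the 47643 Ensembl genes listed for every sample. The class I arm holds 7 genes (B2m, H2-K1, H2-D1, Tap1, Tap2, Tapbp and Nlrc5) and the class II arm holds 3 (Cd74, H2-Aa and H2-Ab1). All 10 were found, and 7 of them passed the filter on low counts and were tested among 14618 genes. The other 3, Nlrc5, H2-Aa and H2-Ab1, are given as counts.

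Ribosome-bound RNA was purified from the dorsal hippocampus of 3 mice of the Tg(Aldh1l1-eGFP/Rpl10a) JD130Htz line, labelled animals C1 to C3 and called animals 1 to 3 here. Each animal gave a whole-astrocyte library (Astro) and a library from perisynaptic astrocytic processes (PAP), thin extensions of astrocytes that lie against synapses, and the 6 libraries were each run as 8 technical replicates (48 samples). The design asks which ribosome-bound transcripts differ between the processes and the whole cell. All animals carry the same transgene, in which the Aldh1l1 promoter drives the ribosomal protein L10a joined to eGFP, so an antibody to GFP captures tagged ribosomes wherever that promoter is active. No other genotype or treatment is labelled, and age, sex and the way the processes were isolated are not given in the sources used here.

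Class I molecules display peptides from a cell's own cytosol. Their heavy chains, here H2-K1 and H2-D1, pair with the light chain B2m and are loaded in the endoplasmic reticulum with peptides that the Tap1-Tap2 pump brings in and the bridge protein tapasin (Tapbp) helps to fit. Class II molecules, such as the H2-Aa and H2-Ab1 pair, display peptides taken up from outside and are made mainly by professional antigen-presenting cells, where the invariant chain Cd74 escorts them to the loading compartment. Nlrc5 drives transcription of class I genes and Ciita that of class II genes, both through a promoter module that includes a CCAAT element, and interferon raises both arms. In the healthy brain, class II genes are found mainly in microglia and border-associated immune cells.

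The promoters of the class I light chain and a heavy chain are shown because the 2 proteins form the class I molecule, with that of H2-Aa as the class II counterpart with no count in PAP. Sequences are from RefSeq on GRCm38.p6, 5′ to 3′ on the gene's strand, and hold the 250 bases before the transcription start. An entry was found for 6 of the 10 genes. Capitals mark 3 kinds of letters searched for on both strands: CCAAT, an interferon-response element (GAAA, any 2 bases, GAAA) and a kappa B element (GGGGATT followed directly by CCCC). B2m lies at chr2:122147437-122147686 (+ strand), H2-K1 at chr17:34000348-34000597 (- strand) and H2-Aa at chr17:34287824-34288073 (- strand).
B2m: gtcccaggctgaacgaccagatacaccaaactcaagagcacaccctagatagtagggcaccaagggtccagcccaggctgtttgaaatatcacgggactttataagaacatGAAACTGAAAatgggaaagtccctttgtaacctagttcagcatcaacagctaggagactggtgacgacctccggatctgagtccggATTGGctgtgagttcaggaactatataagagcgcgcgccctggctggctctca
H2-K1: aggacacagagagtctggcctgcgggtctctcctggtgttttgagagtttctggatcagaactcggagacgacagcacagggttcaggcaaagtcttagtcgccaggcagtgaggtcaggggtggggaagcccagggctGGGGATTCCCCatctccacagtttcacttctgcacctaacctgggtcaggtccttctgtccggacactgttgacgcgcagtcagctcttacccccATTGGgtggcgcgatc
H2-Aa: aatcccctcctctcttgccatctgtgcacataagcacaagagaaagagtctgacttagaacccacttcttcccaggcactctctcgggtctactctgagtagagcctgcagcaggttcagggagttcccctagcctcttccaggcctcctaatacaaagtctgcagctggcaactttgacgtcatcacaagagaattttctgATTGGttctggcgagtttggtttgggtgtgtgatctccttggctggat

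The first base of the CCAAT letters lay 53 bases before the start in B2m, 16 in H2-K1 and 48 in H2-Aa. H2-D1 held these letters at 76 and 53 bases before its RefSeq start, which lies inside the gene as GENCODE M21 annotates it, so that this window is in a 5′ UTR there and is not printed. Over 190 aligned bases that window was identical to that of H2-K1 at 166 (87.4%). The interferon letters were found in B2m (139 bases before the start), and the kappa B letters in H2-K1 (111 bases) and H2-D1 (171 bases before the same RefSeq start). Of 32817 mouse promoters of the same length, 33.8% held the CCAAT letters, 2.97% the interferon letters, and 10 (0.0305%) the kappa B letters. The searched strings did not overlap one another in these windows, and a match is a description of the letters, not of a bound site.

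Astro libraries held 18707844 to 20293538 counts and PAP libraries 1829962 to 2980984, a difference in depth with no overlap. Levels are given as CPM, the count of a gene relative to its library's total. The detection floor of 3 counts lay between 0.148 and 0.160 CPM for Astro libraries and between 1.01 and 1.64 CPM for PAP libraries. The PAP libraries were also patchy: genes with 3 counts or fewer in 1 library of the group and 100 or more in another numbered 2476 in PAP and 43 in Astro, and the biological coefficient of variation was 1.61 in PAP and 0.335 in Astro. Over all tested genes the log2 fold change, PAP against Astro, had a median of -0.53, and -0.38 when libraries were scaled by their totals alone. The median moved with the setting, to -1.63 with the animal as a block, -1.04 with no filter and -0.22 after thinning to equal depth. The summed level of 10 astrocyte markers was 28192, 22842 and 22579 CPM in Astro and 3868, 8481 and 13960 CPM in PAP for animals 1 to 3, with 5 of the 10 lower in PAP (15.4% of all tested genes were) and 0 called with the animal as a block. All 10 were detected in every library, and S100b was higher in PAP animal 3 (2139 CPM) than in any Astro library. P-values and the intervals of fold changes below come from edgeR, which used 1 estimate of the spread between libraries for both groups (biological coefficient of variation 1.00). That spread is the one of neither group alone, and the animal is in the model only where the block is named. Floors and the intervals of levels and shares cover counting error only.

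B2m, which encodes the light chain shared by class I molecules, had the highest mean CPM of the 10 genes in both compartments. In PAP animal 1, Cd74 (184 CPM) was above it. B2m (ENSMUSG00000060802, chromosome 2, 122147686 to 122153083, + strand) stood at 388, 358 and 148 CPM in Astro animals 1, 2 and 3. In PAP it stood at 132, 220 and 171 CPM. Animals 1 and 2 were high in Astro and animal 3 was low, so that the groups overlapped. The log2 fold change was -0.95 ± 0.48 (SE; 95% interval -2.09 to 0.20; edgeR quasi-likelihood test, adjusted p = 0.248), a difference that did not exceed the spread between libraries. In these bulk libraries, fewer cells or processes of a type and less RNA in each cannot be told apart.

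The classical heavy chains H2-K1 and H2-D1, which hold the peptide, had negative fold changes that did not pass the test, and the difference between them was not tested. The median of all tested genes was -0.53, and the value of H2-D1 (-0.44) was not below it. H2-K1 (ENSMUSG00000061232, chromosome 17, 33996017 to 34000347, - strand) gave 70.3, 79.3 and 32.9 CPM in Astro and 17.5, 39.8 and 12.4 CPM in PAP. H2-K1 was lower in PAP in 3 of 3 animals, although PAP animal 2 lay above Astro animal 3, and the log2 fold change was -1.57 ± 0.76 (SE; interval -3.39 to 0.26; edgeR adjusted p = 0.229). H2-D1 (ENSMUSG00000073411, chromosome 17, 35262730 to 35267499, + strand) gave 94.7, 78.6 and 38.4 CPM in Astro and 56.8, 27.8 and 89.2 CPM in PAP. It was lower in PAP in animals 1 and 2 and higher in animal 3, and the groups overlapped, with a log2 fold change of -0.44 ± 0.67 (SE; interval -2.06 to 1.18; edgeR adjusted p = 0.744). The Astro library of animal 3 was the lowest of the Astro group for all 3 chains. The summed level of the 10 astrocyte markers was also lowest there, at 22579 CPM against 28192 and 22842 in animals 1 and 2. So was that of 13 microglial markers, at 69.3 CPM against 120 and 106. The same held for the marker sums of pericytes and fibroblasts (24.4 against 60.8 and 52.1 CPM), macrophages and monocytes (3.33 against 7.54 and 7.48), dendritic cells (1.69 against 4.34 and 4.44) and endothelium (12.7 against 15.1 and 26.5). The sums of neurons (1041 against 549 and 770 CPM), oligodendrocytes (861 against 724 and 769) and T and NK cells (19.8 against 18.9 and 16.7) were highest there, and that of B and plasma cells (53.5 against 58.3 and 36.1) was neither. The part of these in the class I levels was not tested.

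Counts of H2-K1 and H2-D1 could exchange reads, because 9.63% of the distinct 50-base stretches in the exons of H2-K1 and 12.8% of those of H2-D1 occur in another gene, mainly H2-Q10, H2-Q1 and each other. B2m and Cd74 share no such stretch. With that limit, H2-K1 made up 42.6% of the heavy chain counts in Astro animal 1 (95% Wilson interval 40.9 to 44.3), 50.2% in animal 2 (48.4 to 52.0) and 46.1% in animal 3 (43.5 to 48.8). In PAP its share was 23.5% in animal 1 (17.2 to 31.3), 58.9% in animal 2 (50.1 to 67.1) and 12.2% in animal 3 (8.99 to 16.4). The PAP shares lay on both sides of the Astro shares. The intervals cover counting error on amplified reads, and they leave gaps between Astro animals 1 and 2 as well as among the PAP libraries, so the shares are given as a description.

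The ratio of light to heavy chain, B2m over the sum of H2-K1 and H2-D1 in CPM per kilobase of exon, was steadier in Astro. It was 7.45, 7.24 and 6.61 in Astro and 5.49, 10.5 and 5.12 in PAP. The Astro ratios thus varied little although B2m itself ranged 2.62-fold there, while the PAP ratios lay both above and below them. The mean ratios were 7.10 ± 0.433 in Astro and 7.04 ± 3.00 in PAP (SD, n = 3). Their size depends on the annotated exonic lengths, which may differ from those of the mRNAs present.

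**Figure D1:**
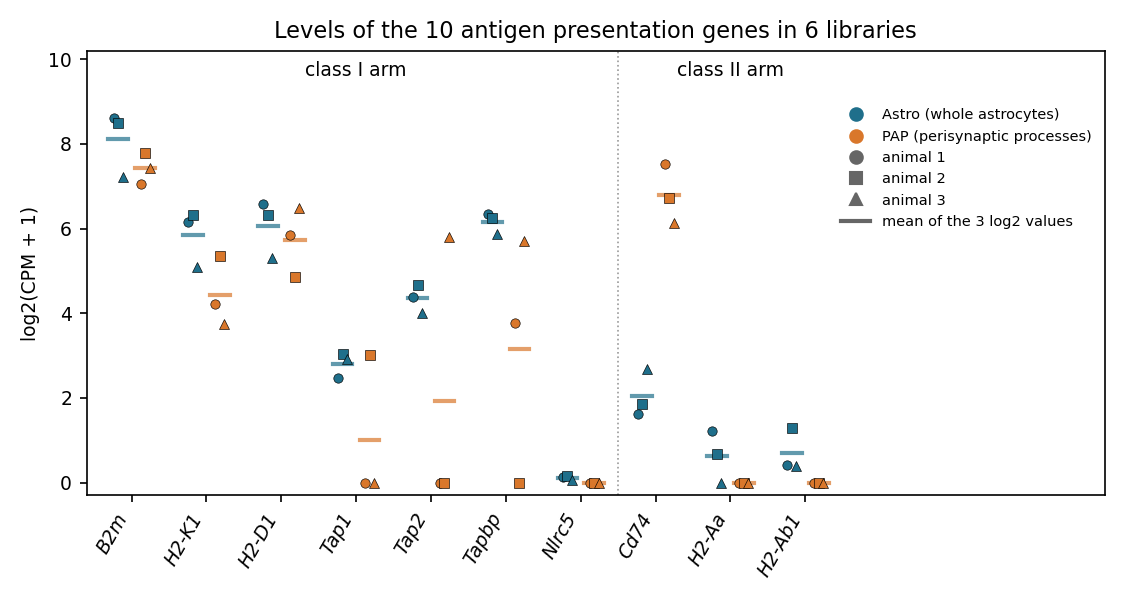
Level of each gene in the 6 libraries as log2(CPM + 1), with CPM over the library total, class I genes to the left and class II genes to the right. Points are libraries (shape: animal; colour: compartment) and lines are means of the 3 log2 values. The PAP points of Cd74 (69.1 to 184 CPM) lie above its Astro points, and Tap1, Tap2 and Tapbp have PAP libraries at 0.

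**Figure D2:**
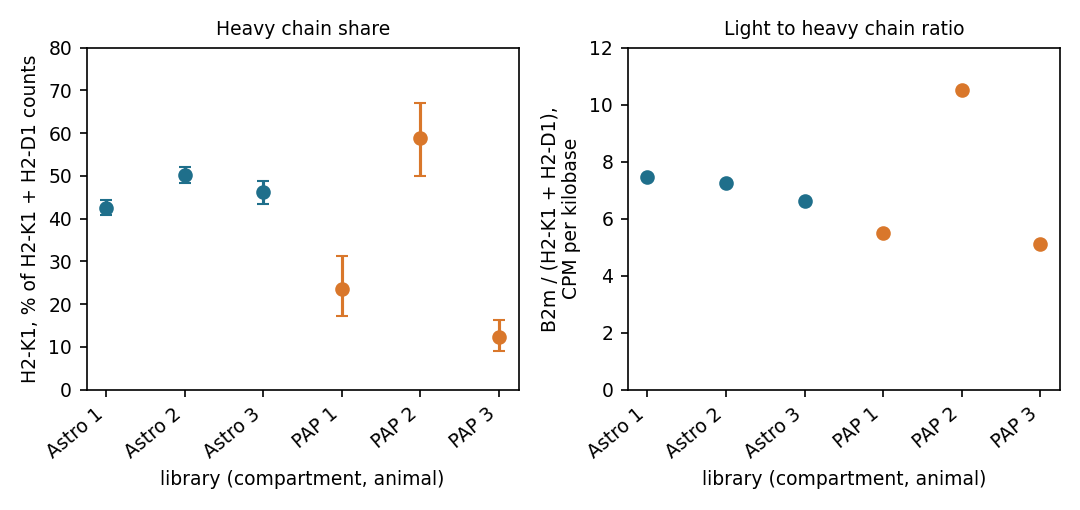
Left, H2-K1 as a percentage of the summed H2-K1 and H2-D1 counts in each library, with 95% Wilson intervals that cover counting error only. Right, ratio of B2m to the summed heavy chains in CPM per kilobase. Astro libraries lie at 42.6% to 50.2% and 6.61 to 7.45, and PAP libraries on both sides of them.

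The peptide-loading genes were present in all Astro libraries and each was missing from at least 1 PAP library. Tap1, a subunit of the peptide pump (ENSMUSG00000037321, chromosome 17, 34187553 to 34197225, + strand), gave 4.53, 7.16 and 6.61 CPM in Astro and 0, 7.09 and 0 CPM in PAP, where the value of animal 2 came from 13 counts. Tap2, the other subunit (ENSMUSG00000024339, chromosome 17, 34203527 to 34216321, + strand), gave 19.8, 24.6 and 15.1 CPM in Astro and 0, 0 and 55.0 CPM in PAP, the last from 164 counts spread over all 8 technical replicates. The pump's subunits were therefore never detected in the same PAP library: Tap1 was seen in animal 2, Tap2 in animal 3, and neither in animal 1.

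Tapbp (ENSMUSG00000024308, chromosome 17, 33915899 to 33929292, + strand) gave 79.9, 74.8 and 57.9 CPM in Astro and 12.6, 0 and 51.3 CPM in PAP. All PAP values lay below all Astro values, as they did for 32.7% of the tested genes. The log2 fold changes were -1.56 ± 1.64 for Tap1 (SE; edgeR adjusted p = 0.621), -0.22 ± 2.10 for Tap2 (adjusted p = 0.965) and -1.86 ± 1.53 for Tapbp (adjusted p = 0.509). None passed the test. For Tap1 and Tapbp the highest PAP library was within or below the Astro range, and for Tap2 it was above every Astro library, while each gene had at least 1 PAP library with no count. Without PAP animal 2, the library that held its counts, Tap1 was called lower (edgeR adjusted p = 0.0241), beside 2930 of all 16431 genes tested there. Without PAP animal 3 Tap2 was called lower (edgeR adjusted p = 0.019), beside 3335 of 16523. In each case every PAP library left had 0 counts of the gene, so no fold is given. Tap1 shares 212 bases with Psmb9, Tap2 overlaps the antisense genes Gm15821 and Gm20496, and Tapbp overlaps Zbtb22 and the antisense gene Gm19412, so the values of all 3 are uncertain. Zbtb22 lies on the strand of Tapbp, so that counting by strand would not separate this pair. B2m and Cd74 are overlapped too. Patl2 lies opposite B2m over 5398 bases (21 counts summed over Astro and 0 over PAP). Mir5107 lies on the strand of Cd74 over 88 bases (20 and 73 counts).

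In counting error alone, the floor of 3 counts lies at 1.64 CPM in PAP animals 1 and 2 and 1.01 CPM in animal 3, below every Astro value of Tap1, Tap2 and Tapbp. Across the tested genes, 60.4% had 3 counts or fewer in at least 1 PAP library, and what set these zeros was not tested. Summed over Tap1, Tap2 and Tapbp, the level was 104, 107 and 79.6 CPM in Astro and 12.6, 7.09 and 106 CPM in PAP, with animal 3 as high as the Astro libraries and animals 1 and 2 low. Nlrc5, the class I transactivator (ENSMUSG00000074151, chromosome 8, 94434356 to 94527272, + strand), had 2, 2 and 1 counts in Astro and 0 in each PAP library, at or under the floor everywhere, so no fold is given.

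In the class II arm Cd74 was higher in PAP, while the H2-Aa and H2-Ab1 chains had no PAP count. Cd74, the invariant chain (ENSMUSG00000024610, chromosome 18, 60803848 to 60812652, + strand), stood at 2.07, 2.62 and 5.38 CPM in Astro, from 42, 49 and 105 counts. In PAP it stood at 184, 105 and 69.1 CPM, from 337, 192 and 206 counts. Every PAP library was above every Astro library, which was true of 11.7% of the tested genes, and Cd74 was detected in all 8 technical replicates of each library.

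Cd74 rose 32.3-fold in PAP, with group means of 3.36 ± 1.78 and 119 ± 58.9 CPM (SD, n = 3). The log2 fold change was 5.01 ± 0.75 (SE; interval 3.21 to 6.82; edgeR adjusted p = 0.0200). It was higher in PAP in 3 of 3 animals. With the animal as a block, the log2 fold change was again 5.01 and the edgeR adjusted p was 0.179, so the call did not hold there. It was also lost when an Astro library was left out, with adjusted p of 0.0817, 0.0864 and 0.0672 without animals 1, 2 and 3, and kept when a PAP library was left out. Cd74 was the 1 gene called of the 7 tested members. Over all tested genes 21.3% were called, with 5.92% higher and 15.4% lower, and groups did not overlap in either direction for 44.4%. With the animal as a block 0 of the 7 members were called, beside 0.91% of all tested genes, with 0.876% higher and 0.0342% lower. By edgeR 0 members were called lower, and 0 were lower at an unadjusted p under 0.05 or by DESeq2's Wald test.

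The class II chains that Cd74 escorts were near or at 0. H2-Aa (ENSMUSG00000036594, chromosome 17, 34282744 to 34287823, - strand) had 27, 11 and 0 counts in Astro, and H2-Ab1 (ENSMUSG00000073421, chromosome 17, 34257689 to 34269419, + strand) had 7, 27 and 6. Neither had a count in any PAP library. Their Astro means of 0.639 CPM for H2-Aa and 0.699 CPM for H2-Ab1 lie below the mean PAP floor of 1.43 CPM, and at those levels a PAP library would hold 1.17 to 1.91 counts of H2-Aa and 1.28 to 2.08 of H2-Ab1. A fall in PAP was therefore not detectable at this depth, and no fold is given. In counting error alone, 0 counts allow up to 2.02, 2.01 and 1.24 CPM in PAP animals 1, 2 and 3 (exact Poisson 95% limits). Within a library, the chains summed to 1.68, 2.03 and 0.308 CPM in Astro while Cd74 stood at 2.07, 2.62 and 5.38, so the Astro library with the most Cd74 had the least of its partners.

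Of the other genes of the class II pathway, a list of 18 found genes, 5 were at 0 in all Astro libraries and 8 at 0 in all PAP libraries. Of these 18, 8 were tested, 1 was higher in PAP (5.92% of all tested genes), 2 were lower (15.4%) and 5 did not pass, and the median log2 fold change was -1.39 (-1.23 with genes at the PAP floor set to their bound). Ifi30, a lysosomal thiol reductase that unfolds antigens, gave 2.27, 2.35 and 1.74 CPM in Astro and 20.2, 60.6 and 19.5 CPM in PAP. It rose in all 3 animals, with a log2 fold change of 3.81 ± 0.96 (SE; edgeR adjusted p = 0.0343, and 0.256 with the animal as a block). The genes called lower, named after their values were seen, were H2-DMa and March1. H2-DMa, a peptide exchanger, was at least 2.27-fold lower, and March1, a ubiquitin ligase that removes class II from the surface, at least 2.60-fold. These bounds compare group means. The March1 level of Astro animal 2 (1.28 CPM, from 24 counts) lay below the floor of PAP animal 2 (1.64 CPM).

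The transactivator Ciita had 11, 3 and 12 counts in Astro and 0 in PAP, and H2-Eb1, another class II chain, had 20, 9 and 15 counts in Astro and 0, 1 and 0 in PAP. The costimulatory gene Cd86 had no count in any library. Ctss, a protease that trims the invariant chain, stood at 8.87, 10.3 and 3.79 CPM in Astro and 130, 199 and 2.68 CPM in PAP (edgeR adjusted p = 0.131). Its PAP libraries of animals 1 and 2 were far above Astro and that of animal 3 was below. The other cathepsins did not pass the test, with log2 fold changes of -1.28 for Ctsb (edgeR adjusted p = 0.0704), -1.50 for Ctsd and -2.06 for Ctsl. No gene of this list was called with the animal as a block or without any 1 of the Astro libraries, and 0 were called lower without PAP animal 1 or PAP animal 2, after thinning, with no filter or with technical replicates 5 to 8. Ifi30 was not called with no filter.

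Markers of other cell types were measured beside Cd74. A list of 9 B and plasma cell genes summed to 58.3, 36.1 and 53.5 CPM in Astro and 6188, 3762 and 2781 CPM in PAP. Of its 6 tested genes, 4 were higher in PAP (Jchain, Igkc, Mzb1 and Ms4a1) and Ighm was lower, beside 5.92% higher and 15.4% lower over all tested genes. With the animal as a block 3 were called, all higher, beside 0.876% of all tested genes. The PAP libraries fell in the same order for this sum and for Cd74, with animal 1 highest and animal 3 lowest, as they did for the macrophage and monocyte sum and for the endothelial sum (26.2, 16.9 and 15.1 CPM). Among the list's defining B cell genes, Pax5 was at 0 in all 6 libraries and Cd79a had 2 counts in each Astro library and none in PAP. Cd79b stood at 0.591, 0.267 and 0 CPM in Astro and 44.3, 14.7 and 2.01 CPM in PAP, without overlap, and did not pass (edgeR adjusted p = 0.0841). Whether RNA of such cells has a part in the level of Cd74 was not tested.

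Microglial markers were mixed: 13 genes summed to 120, 106 and 69.3 CPM in Astro and 65.6, 34.4 and 99.0 CPM in PAP, 4 of 10 tested were lower and 0 higher, beside 15.4% and 5.92% of all tested genes. All 4 were at the PAP floor, as were 16.5% of all tested genes, and P2ry12, Cx3cr1 and Tmem119 were at 0 in every PAP library. Trem2, Tyrobp, C1qa, C1qb and C1qc had higher means in PAP, as for C1qb with 7.92 CPM in Astro and 19.8 in PAP, each with at least 1 PAP library at 0 counts, and the groups overlapped for all 5. A list of 9 perivascular macrophage and monocyte genes summed to 7.54, 7.48 and 3.33 CPM in Astro and 58.5, 37.6 and 25.5 CPM in PAP. A single gene made up nearly all of each PAP sum, Ly6c2 in animals 1 and 3 (57.9 and 24.8 CPM) and Lyz2 in animal 2 (36.0 CPM). In that list, Ly6c2 was the 1 gene called higher (edgeR adjusted p = 0.0290, and 0.230 with the animal as a block), Cd163 and 2 others were at 0 in all Astro libraries, and 6 of 9 were at 0 in all PAP libraries. For dendritic cells, 6 markers summed to 4.34, 4.44 and 1.69 CPM in Astro and 1.09, 0 and 0 CPM in PAP, and Itgax was at 0 throughout. No microglial gene was called with the block. The part of the microglial and macrophage genes in the level of Cd74 was not tested.

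**Figure D3:**
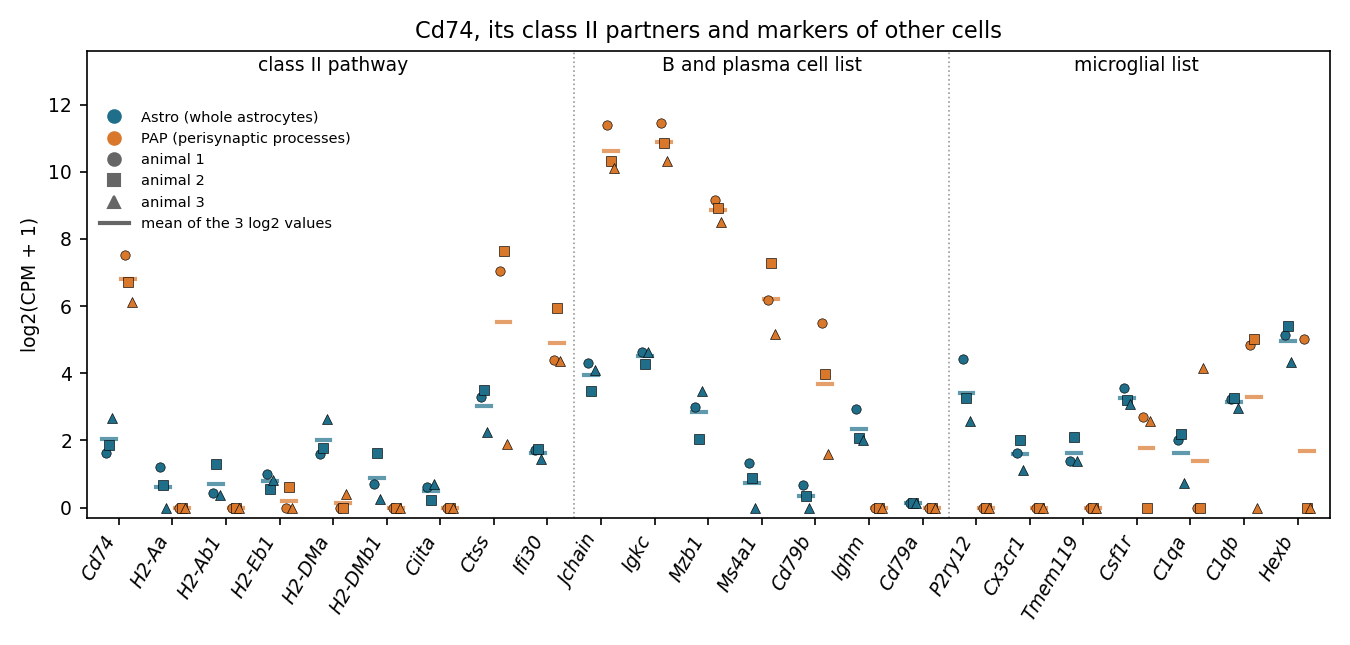
Level of Cd74, of class II pathway genes, and of B and plasma cell and microglial markers as log2(CPM + 1) in each library (points: libraries, shape for animal, colour for compartment; lines: means of the 3 log2 values). The PAP points of Cd74, Jchain, Igkc and Mzb1 lie above their Astro points, while H2-Aa, H2-Ab1, P2ry12, Cx3cr1 and Tmem119 have no PAP count.

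The members can be set in order by CPM per kilobase of exon. The length counts all annotated exons of a gene, not those of the mRNA present, so the order depends on the annotation. By CPM alone, the Astro means of Tapbp (70.9), H2-D1 (70.5) and H2-K1 (60.8) fall in another order. In Astro the order was B2m (347), H2-D1 (27.4), H2-K1 (20.7), Tapbp (19.5), Tap2 (5.24), Cd74 (2.00), Tap1 (1.11), H2-Ab1 (0.272), H2-Aa (0.168) and Nlrc5 (0.0101), as means of 3 libraries. Neighbours whose libraries did not overlap were B2m and H2-D1, Tapbp and Tap2, Tap2 and Cd74, and Tap1 and H2-Ab1. The ranges of H2-D1, H2-K1 and Tapbp overlapped over the 3 libraries, although within each Astro library H2-D1 was above H2-K1 (36.7 and 23.9, 30.5 and 27.0, 14.9 and 11.2).

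In PAP the order by the same measure was B2m (203), Cd74 (71.1), H2-D1 (22.5), H2-K1 (7.91), Tapbp (5.87), Tap2 (4.85) and Tap1 (0.432), with Nlrc5, H2-Aa and H2-Ab1 at 0. Cd74 moved from the sixth place in Astro to the second in PAP, where its libraries overlapped neither those of B2m above nor those of H2-D1 below. From H2-D1 down, each gene's PAP libraries overlapped those of the next.

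Among other class I chains, H2-T23 was higher in PAP and Cd1d1 lower. Of 14 genes in this list, 7 were tested, and the 2 called are beside 21.3% of all tested genes. The other 5 did not pass, with a median log2 fold change of 0.94. H2-T23, the nonclassical Qa-1 chain that presents leader peptides of other class I chains, gave 5.77, 7.32 and 3.18 CPM in Astro and 43.2, 69.3 and 52.0 CPM in PAP. It rose without overlap, with a log2 fold change of 3.17 ± 0.78 (SE; edgeR adjusted p = 0.0321, and 0.215 with the animal as a block). H2-T24 had a log2 fold change of 4.20 ± 1.60 and H2-T22 one of 0.94 ± 0.89, and neither passed (edgeR adjusted p = 0.129 and 0.576). No gene of the list was called without any 1 of the Astro libraries, and 0 were called higher with no filter.

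Mr1, which presents microbial vitamin metabolites, had 1048, 842 and 857 counts in Astro and 0, 0 and 104 counts in PAP (edgeR adjusted p = 0.579). It was thus detected in the same single PAP library, animal 3, as Tap2. Cd1d1, a lipid-presenting chain named after its value was seen, was the gene called lower, at least 2.33-fold (edgeR adjusted p = 0.0217, and 0.206 with the animal as a block), and 0 genes of the list were called lower after thinning or with technical replicates 1 to 4 alone. Cd1d1 was too low to be tested with the filter on a mean of at least 100 counts. Chains of this family are near-identical in part, so the division of reads among them is uncertain.

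Peptide supply and loading genes outside the 10 were better covered, and all 17 were tested. Beside 5.92% higher and 15.4% lower over all tested genes, 3 were higher in PAP, 0 were lower (0 at an unadjusted p under 0.05, and 0 by DESeq2) and 14 did not pass, with a median log2 fold change of 0.41 against -0.53 for all tested genes. Psme1 and Psme2, subunits of the proteasome activator PA28, were at 62.9 ± 3.72 and 75.4 ± 8.87 CPM in Astro and 284 ± 68.5 and 331 ± 70.2 CPM in PAP (SD, n = 3). They rose by similar amounts, with log2 fold changes of 2.02 ± 0.35 and 1.98 ± 0.32 (SE; edgeR adjusted p = 0.0208 for both), and for both genes every PAP library was above every Astro library. Blmh, a cytosolic aminopeptidase, gave 49.3, 35.1 and 59.9 CPM in Astro and 258, 159 and 132 CPM in PAP, with a log2 fold change of 1.78 ± 0.44 (SE; edgeR adjusted p = 0.0329).

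The chaperones Canx and Calr and the activator subunit Psme3 did not pass, with log2 fold changes of 0.75, 0.16 and 0.30. None of the immunoproteasome subunits Psmb8, Psmb9 and Psmb10 passed either. With the animal as a block, the edgeR adjusted p was 0.206 for Psme1, 0.204 for Psme2 and 0.206 for Blmh, and no gene of the list was called. The count of genes called higher was 0 without each Astro library and 2 or 3 without each PAP library. Of all genes tested there, 943 of 16390, 1108 of 16431 and 1251 of 16523 were higher without PAP animals 1, 2 and 3. In the list 1 gene was called lower without PAP animal 1, beside 3214 of all 16390.

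**Figure D4:**
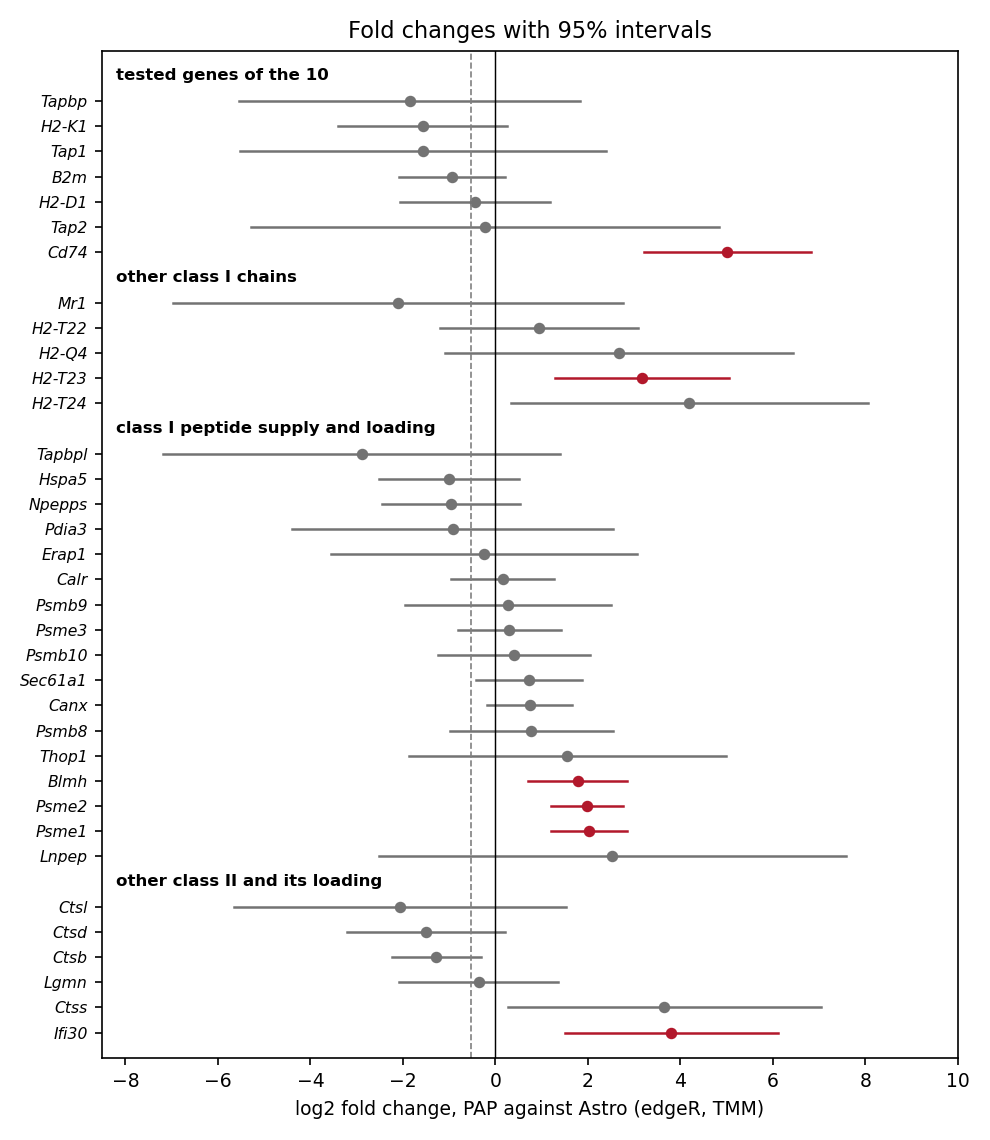
Log2 fold change, PAP against Astro, with 95% intervals from edgeR for tested genes of the 10 and of 3 pathway lists, without genes at the PAP floor. Red marks an adjusted p under 0.05 and the dashed line the median of all tested genes (-0.53). Cd74, H2-T23, Blmh, Psme2, Psme1 and Ifi30 are the red points. The genes of these lists called lower (Cd1d1, H2-DMa and March1) are at the PAP floor and so are not drawn.

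Regulators of MHC transcription gave no call: of 13 genes 11 were tested, 0 were higher and 0 lower by edgeR with or without the block and by DESeq2, and at an unadjusted p under 0.05 0 were higher and 0 lower. Without PAP animal 1, 3 were called lower, beside 3214 of all 16390 genes tested there, and without PAP animal 2, 1 was, beside 2930 of 16431. The median log2 fold change was -0.64. Rela, an NF-kappa B subunit that binds kappa B elements, stood at 94.0, 49.0 and 92.0 CPM in Astro and 51.9, 0 and 121 CPM in PAP. Among the factors that assemble on the class I and class II promoter module, Rfxap had a log2 fold change of -0.86 ± 0.62 and Rfxank one of -2.84 ± 2.05 (SE; edgeR adjusted p = 0.435 and 0.439). Creb1, which binds the module's X2 element, had one of 0.56 ± 1.00. In the PAP libraries Rfxank was detected in animal 1 alone and Rela in animals 1 and 3, a patchiness like that of the loading genes.

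Interferon signalling genes were lower in PAP where they were called. Of 30 genes 28 were tested, 13 were lower, 0 were higher (0 at an unadjusted p under 0.05, and 0 by DESeq2) and 15 did not pass, beside 15.4% lower over all tested genes. The median log2 fold change was -2.93, and -1.37 with genes at the PAP floor set to their bound. Of the 28 tested genes, 11 were at or under 3 counts in every PAP library, all of them among the 13 called lower, and of all tested genes 16.5% were. These 11 passed the filter through their Astro counts, so their direction was set by that. Jak1 and Jak2 were the calls with a PAP library above the floor. The signalling genes called were Ifnar1, a type I interferon receptor chain at 38.7, 40.8 and 28.8 CPM in Astro and at least 25.3-fold lower in PAP, and the kinases Jak1 and Jak2.

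Jak1 stood at 165, 176 and 253 CPM in Astro and 77.1, 34.9 and 43.9 CPM in PAP. Its log2 fold change was -2.07 ± 0.45 and that of Jak2 was -5.62 ± 1.28 (SE; edgeR adjusted p = 0.0222 and 0.0250). Among interferon-induced genes, Gbp3 was at least 18.2-fold lower in PAP, Ifit2 at least 10.3-fold, Oasl2 at least 7.84-fold, Ifit1 at least 4.45-fold and Usp18 at least 4.25-fold. The receptor chain Ifngr2 and the induced gene Ifi27 did not pass, with log2 fold changes of 0.73 and -2.63. None of the list was called with the animal as a block or without any 1 of the Astro libraries. After all libraries were thinned to 1 common depth 6 were called lower, beside 962 of all 11204 genes tested there.

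**Figure D5:**
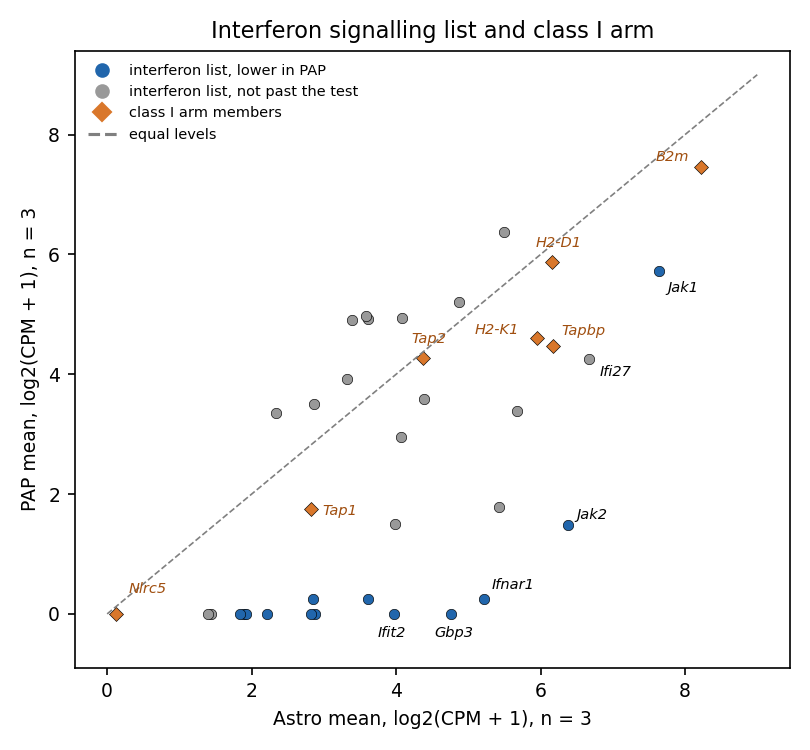
Group means (n = 3) of the interferon signalling list and of the class I members, as log2 of the mean CPM + 1, Astro on the horizontal and PAP on the vertical axis. The dashed line marks equal levels. Blue marks genes called lower in PAP, 11 of which lie at or near 0 in PAP, and the class I chains B2m and H2-D1 lie close to the line.

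The genes whose levels followed B2m most closely over the 6 libraries, among 9929 genes with a mean of at least 10 CPM, were Ncs1 (Pearson r of log2(CPM + 1) = 0.901), Tmem208 (0.898) and Gm26527 (0.898). For Cd74 they were St6galnac6 (0.999), Tpm3-rs7 (0.999) and Lzts3 (0.999). St6galnac6 stood at 41.0, 49.4 and 67.8 CPM in Astro and 595, 392 and 294 CPM in PAP, with animal 3 highest in Astro and animal 1 highest in PAP, as for Cd74. The 6 points share their animals, and the split in depth between compartments enters every such r, which is given as a description.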

How the data were processed

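Deposited values were raw counts per Ensembl gene, per the file headers and the values, with no scaling by the authors. Per the submitters' processing notes, bcl2fastq 2.18.0.12, Trim Galore 0.4.1, STAR 2.5.2b, SAMtools, HTSeq 0.5.3 and build mm10 were used. Strand setting and annotation release are not given in the sources used here. Per the labels' protocols, lysates were cleared on columns without antibody and with nonspecific mouse antibody, and RNA was amplified with SMART-Seq and made into Nextera XT libraries. Counts of the 8 technical replicates were summed per library. Symbols, positions and exonic lengths came from GENCODE M21 (GRCm38), which held 99.12% of the IDs and 99.86% of the counts.

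CPM values are counts over the library total, without TMM factors. PAP was compared with Astro in edgeR 4.0.16 (R 4.3.3; quasi-likelihood test, TMM, filterByExpr with minimum count 10, model of group alone, Benjamini-Hochberg adjustment over 14618 genes, threshold 0.05). A gene at 3 counts or fewer in every library of a group got a bound against that floor (3 counts per library, means compared). The same-animal libraries are paired by the labels. Their deviations from the group means correlated at 0.034, 0.019 and -0.033 for animals 1 to 3, and -0.003 on average between animals. Blocking on the animal, DESeq2 1.42.0, other scalings and filters, thinning and leaving out each library were alternatives.

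The members and lists were chosen with earlier results of these data known. All 10 members are named. From each pathway list, the text names up to 6 genes past the threshold with a mean of at least 5 CPM in a group and up to 4 with the highest mean CPM, with exceptions stated or given as family members. Some genes of the lists are not reported here by name.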

Additional observations from a re-analysis of the deposited data

How the results depend on the processing

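With the replicate block (the animal), 133 genes were called over the whole table in place of 3115, and 0 members were called higher. DESeq2's Wald test called 4756 genes, a filter on a mean of at least 100 counts 1414, thinning to equal depth 1653 and an adjusted p under 0.01 163, where 0 members were called higher. Leaving out 1 library gave 115 to 4586 genes (115 without Astro animal 1), 0 to 1 members higher and 0 to 1 lower. The calls without an Astro library numbered 115, 128 and 140. Of all calls, 27.8% were higher in PAP, against 41.8% after thinning, 41.6% with the filter on the mean, 96.2% with the block, 93.3% at an adjusted p under 0.01, and 99.1%, 96.1% and 96.4% without Astro animals 1, 2 and 3.

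Cd74 stayed higher in direction in 15 alternatives, at 4.54 to 5.48 on the log2 scale, with adjusted p from 5.14e-12 to 0.179. It lost the call with the block and without each Astro library. B2m (-1.27 to -0.71), H2-K1 (-2.26 to -1.27), H2-D1 (-1.001 to -0.165) and Tapbp (-3.75 to -1.33) kept a negative fold change and did not pass in 15 alternatives each. The median of all tested genes was negative in every setting too, from -1.63 with the block to -0.13 with DESeq2's Wald test. With the block, B2m (-0.83) and H2-D1 (-0.52) lay above that median, H2-K1 (-1.61) close to it and Tapbp (-3.25) below it. The lowest values of H2-K1 (adjusted p 0.062) and Tapbp (0.145) came without PAP replicates 2 and 3. Tap1 ranged from -9.29 (without PAP replicate 2) to -1.01 in 14. Tap2 came to -10.97 without PAP replicate 3 and reversed to 0.02 without Astro replicate 2, 0.32 without PAP replicate 1 and 0.30 without PAP replicate 2. In the fits that gave -9.29 and -10.97, every PAP library left had 0 counts of the gene, so these values do not measure a fold. The counts of the pathway lists under these settings were computed after seeing the data. The lower depth of PAP limits H2-Aa, H2-Ab1 and Nlrc5. Apart from what is given here and in the report, the block changed no other call of a member.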
